A study of Mus musculus with 10 samples.

Results

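Nonsense-mediated mRNA decay (NMD) factors were followed in mouse haematopoietic stem cells (HSCs) labelled as a Dhx16 knockout and in controls. The set held 9 genes of 52097 in the deposited table, taken by gene symbol alone: Upf1, Upf2, Upf3a, Upf3b, Smg1, Smg5, Smg6, Smg8 and Smg9. All 9 were in the table and all 9 passed the filter on low values, a mean of 1 FPKM (fragments per kilobase of transcript, scaled to the mapped fragments of a library) over the 10 libraries. The study compared 5 HSC samples with a Dhx16 knockout, titled Dhx16_CKO, with 5 control samples titled Dhx16_fl and given the genotype WT. DHX16 is an RNA helicase of the DEAH-box family that acts in the spliceosome. The cells came from bone marrow and were sorted as Lin-Sca-1+c-Kit+CD48-CD150+, with about 5000 cells per sample, and their mRNA was amplified with the Smart-Seq V4 kit. The labels used here give neither the Cre driver, the time since deletion, nor the age of the mice. They do not say whether each sample was 1 animal, so p-values measure only the spread between these samples. The knockout libraries are called CKO7, CKO8, CKO9, CKO12 and CKO13 in the table, the control libraries WT2 to WT6, and values are given in those orders.

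NMD removes mRNAs on which the ribosome terminates early, often because a stop codon lies upstream of an exon junction complex that has not been displaced. The helicase UPF1 binds the terminating ribosome, UPF2 and the UPF3 proteins link it to the exon junction complex, and the kinase SMG1 phosphorylates it under the restraint of SMG8 and SMG9. Phosphorylated UPF1 then recruits the endonuclease SMG6, which cuts the mRNA, and SMG5, an adaptor on the way to deadenylation and decapping. In human cells the mRNAs of several of these factors are themselves targets of the pathway.

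In the knockout cells Smg5 mRNA was higher and the mRNAs of Smg1 and Smg6 were lower than in controls, while the 4 UPF genes, Smg8 and Smg9 did not pass the test. With limma on log2(FPKM + 1) over 14007 genes and a Benjamini-Hochberg adjusted p under 0.05, 1 of the 9 factors was higher and 2 were lower. Of all genes tested, 12.6% were called higher, 33.8% lower and 46.4% in either direction, so neither count of factors exceeded the share over all genes. The median change of all genes was -0.26 on the log2 scale, so the deposited values lay lower in the knockout libraries for most genes. After rescaling the libraries by the median of ratios, each library divided by the median ratio of its genes to their geometric means, the median change of all genes was 0.06. Calls under that scaling were 26.8% higher, 12.8% lower and 39.6% in either direction, and Smg5 was then the 1 factor called, again higher. No factor was then called lower by limma, and 0 were lower at an unadjusted p under 0.05. For this reason each change below is given on both scales, and ratios of factor pairs within a library, which no scaling alters, follow the single genes.

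The promoters of the 3 called genes are shown because their mRNAs moved in different directions. Each runs from 250 bases before to 50 after the RefSeq transcript start (assembly GRCm38.p6), read 5′ to 3′ along the gene. Capitals mark matches on either strand to the GC box GGGCGG or the box CCAAT.
Smg5 (chr3:88336010-88336309, plus strand): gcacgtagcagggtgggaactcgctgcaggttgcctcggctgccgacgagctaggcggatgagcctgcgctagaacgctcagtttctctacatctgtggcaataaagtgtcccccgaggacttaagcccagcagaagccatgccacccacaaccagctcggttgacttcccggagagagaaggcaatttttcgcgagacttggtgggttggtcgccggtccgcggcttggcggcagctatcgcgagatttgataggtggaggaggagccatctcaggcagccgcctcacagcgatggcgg
Smg1 (chr7:118243588-118243887, minus strand): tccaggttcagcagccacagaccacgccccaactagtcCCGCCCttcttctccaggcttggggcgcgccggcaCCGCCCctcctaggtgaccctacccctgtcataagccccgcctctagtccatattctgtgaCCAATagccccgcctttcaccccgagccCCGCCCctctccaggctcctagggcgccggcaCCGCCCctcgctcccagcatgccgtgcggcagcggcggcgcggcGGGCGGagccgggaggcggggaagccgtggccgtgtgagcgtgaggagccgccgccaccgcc
Smg6 (chr11:74925604-74925903, plus strand): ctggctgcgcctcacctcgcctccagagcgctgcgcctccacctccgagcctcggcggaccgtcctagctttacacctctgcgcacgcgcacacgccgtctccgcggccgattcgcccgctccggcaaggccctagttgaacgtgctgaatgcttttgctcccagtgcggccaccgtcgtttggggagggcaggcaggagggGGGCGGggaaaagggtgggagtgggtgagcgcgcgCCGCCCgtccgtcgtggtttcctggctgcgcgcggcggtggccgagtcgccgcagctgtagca
The Smg5 window held neither match, the Smg1 window held 5 GC boxes and 1 CCAAT, and the Smg6 window held 2 GC boxes. Among the factors not called, GC boxes numbered 2 for Upf1, 5 for Upf2, 1 for Upf3a, 2 for Upf3b, 0 for Smg8 and 1 for Smg9. A link between these matches and the direction of change was not tested. GC content was 60.7% for Smg5, 72.0% for Smg1 and 70.7% for Smg6, against a median of 52.7% over 32851 mouse promoters of the same length. Over the 9 factors, 7 promoters held GGGCGG and 4 held CCAAT, and these letters occur in 35.7% and 37.4% of all promoters. The palindromic NRF1 motif was in the promoters of Upf1 and Smg9 and in 0.971% of all promoters. The letters CACGTG, TGACGTCA, CCGGAAGT, TTTGGCGC and TTTCCCGC, searched on both strands, were in 0 of the 9 windows. They occur in 7.15%, 1.79%, 3.89%, 0.514% and 1.07% of all promoters, in that order. A match describes letters and not a bound factor.

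The targeted gene was measured first as a check of the labels. Dhx16 had 10.88, 10.56, 8.80, 7.10 and 10.13 FPKM in knockout libraries, against 22.63, 20.53, 14.58, 15.50 and 14.33 FPKM in control libraries. Every knockout library lay below every control library, and the change was -0.81 ± 0.157 on the log2(FPKM + 1) scale (SE; limma adjusted p = 0.00150). Whether the value covers the deleted part of the gene is not given in the sources used here. All 10 HSC markers were detected, with sums of 629 to 1000 FPKM in knockout libraries and 1069 to 1456 FPKM in control libraries, and 8 of the 10 were lower as deposited and 3 after median-of-ratios scaling. Erythroid markers summed to 753 to 1177 FPKM in knockout libraries and 120 to 397 FPKM in control libraries, with 8 of 8 higher. Megakaryocyte markers summed to 718 to 1412 FPKM in knockout libraries and 1528 to 2312 FPKM in control libraries, with 8 of 8 lower. Macrophage markers summed to 10.6 to 27.5 FPKM in knockout libraries and 117 to 272 FPKM in control libraries, with 6 of 6 lower. Granulocyte markers (8348 to 40842 FPKM in knockout and 9623 to 74170 FPKM in control libraries) and bone matrix markers (4549 to 47778 FPKM in knockout and 3180 to 65871 FPKM in control libraries) overlapped, with 0 of 6 called in each by limma; at an unadjusted p under 0.05, 3 granulocyte markers and 0 bone matrix markers were lower. Of 8 markers listed for lineage cells and CD48, 7 were in the table and 4 passed the filter. The 1 called, lower, was Ptprc, which encodes CD45 and is expressed by HSCs themselves, so it does not measure cells that the sort removes. Without Ptprc the sum was 26.6 to 90.7 FPKM in knockout libraries and 61.2 to 214 FPKM in control libraries, and limma called 0 of the 3 tested, with 2 lower at an unadjusted p under 0.05. In every library the granulocyte sum and the bone matrix sum each exceeded the sum of the HSC markers. No marker of any list above was at 0 in every library. The part of cells other than HSCs in the changes below was not tested, and fewer cells of a type cannot be told apart from less RNA per cell.

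**Figure D1:**
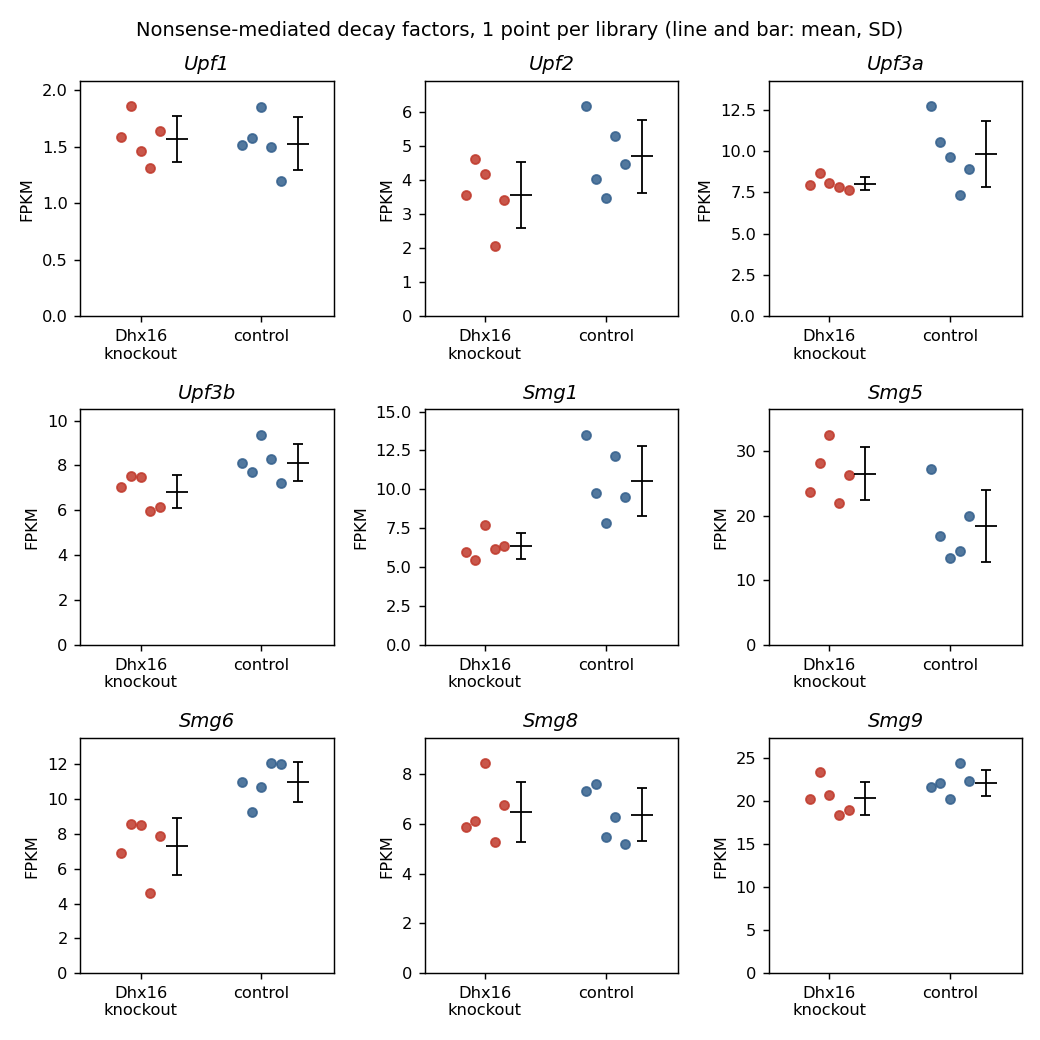
FPKM of each NMD factor in the 5 Dhx16 knockout libraries (left, red) and the 5 control libraries (right, blue), 1 point per library, with the mean and SD beside each group. For Smg1 and Smg6 all knockout points lie below all control points, and for Smg5 the control library WT2, at 27.33 FPKM, lies among the knockout points.

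Upf1, the RNA helicase at the centre of the pathway, had the lowest level of the 9 factors. Its values were 1.59, 1.86, 1.46, 1.31 and 1.64 FPKM in knockout libraries, against 1.52, 1.58, 1.85, 1.5 and 1.2 FPKM in control libraries. The groups overlapped almost fully, with means of 1.57 ± 0.206 FPKM in knockout and 1.53 ± 0.232 FPKM in control libraries (SD, n = 5 each). The limma change was 0.02 ± 0.147 (SE; adjusted p = 0.903; exact permutation p = 0.754), with an approximate 95% interval of -0.26 to 0.31. After median-of-ratios scaling the change was 0.26 (limma adjusted p = 0.138). In the authors' deposited table the log2 fold change was 0.44 with an adjusted p of 0.0321, which called Upf1 higher. Upf1 (chromosome 8, 70331525 to 70353278, mm10) overlaps Cers1 and Gdf1 on the other strand, and the strand setting of the counting is not given in the sources used here.

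Upf2, the adaptor between UPF1 and UPF3, had 3.58, 4.63, 4.17, 2.08 and 3.41 FPKM in knockout libraries, against 6.17, 4.04, 3.48, 5.31 and 4.48 FPKM in control libraries. CKO12 was the lowest of the 10 and WT2 the highest, and the groups overlapped. The limma change was -0.33 ± 0.183 (SE; adjusted p = 0.162; exact permutation p = 0.151), and -0.02 after median-of-ratios scaling (adjusted p = 0.934).

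Upf3a and Upf3b are paralogs that contact the exon junction complex. Upf3a had 7.96, 8.67, 8.05, 7.84 and 7.65 FPKM in knockout libraries, against 12.71, 10.55, 9.63, 7.33 and 8.93 FPKM in control libraries. The knockout libraries lay close together (8.03 ± 0.386 FPKM) inside the range of the wider control libraries (9.83 ± 1.99 FPKM; SD, n = 5 each). Upf3b, the X-linked copy, had 7.02, 7.55, 7.49, 5.96 and 6.15 FPKM in knockout libraries, against 8.10, 7.69, 9.37, 8.30 and 7.20 FPKM in control libraries. The top knockout values of Upf3b reached into the control range. Neither passed limma's test over all genes: the change was -0.24 ± 0.132 for Upf3a (SE; adjusted p = 0.149) and -0.22 ± 0.112 for Upf3b (SE; adjusted p = 0.123). The exact two-sided permutation test of the single gene gave p = 0.0794 for Upf3a and p = 0.0317 for Upf3b, and for Upf3b 3 of the 5 knockout libraries lay below all control libraries. After median-of-ratios scaling both changes were positive, 0.10 (limma adjusted p = 0.505) and 0.12 (adjusted p = 0.379).

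Smg1, the kinase of UPF1, fell in the knockout cells. It had 6.0, 5.49, 7.73, 6.15 and 6.39 FPKM in knockout libraries, against 13.51, 9.77, 7.86, 12.15 and 9.53 FPKM in control libraries. All 5 knockout libraries lay below all 5 control libraries, although CKO9 and WT4 nearly met, and 24.0% of all genes tested were lower without overlap, 7.45% higher and 31.5% in either direction. The means were 6.35 ± 0.838 FPKM in knockout and 10.6 ± 2.25 FPKM in control libraries (SD, n = 5 each), and the limma change was -0.64 ± 0.147 (SE; adjusted p = 0.00404). The exact two-sided permutation test over the libraries gave p = 0.00794, the smallest that 5 against 5 allows. The change of Smg1 lay at the 22.4th percentile of all genes, so many genes had larger decreases. After median-of-ratios scaling it was -0.29 and did not pass (limma adjusted p = 0.136). The authors' deposited table called Smg1 lower, with a log2 fold change of -0.37 and an adjusted p of 0.0446. Smg1 overlaps Gm45084 on the same strand and Gm25683 on the other strand, and the part of these genes in its values was not tested.

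Smg8 and Smg9, which form a complex with SMG1 and restrain the kinase, were not called in either scaling. Smg8 had 5.86, 6.12, 8.42, 5.25 and 6.73 FPKM in knockout libraries, against 7.29, 7.58, 5.47, 6.28 and 5.19 FPKM in control libraries. Its groups overlapped, with CKO9 the highest of the 10, and the limma change was 0.02 ± 0.144 (SE; adjusted p = 0.920; exact permutation p = 0.881; approximate 95% interval -0.26 to 0.30). Smg9 had 20.31, 23.38, 20.75, 18.46 and 18.95 FPKM in knockout libraries, against 21.72, 22.17, 20.25, 24.44 and 22.33 FPKM in control libraries. These groups overlapped too, and the limma change was -0.12 ± 0.0966 (SE; adjusted p = 0.331; exact permutation p = 0.143; approximate 95% interval -0.31 to 0.07). After median-of-ratios scaling the changes were 0.35 for Smg8 (limma adjusted p = 0.0511) and 0.25 for Smg9 (adjusted p = 0.0747). In the authors' deposited table both were called higher, with log2 fold changes of 0.43 (adjusted p = 0.0362) and 0.29 (adjusted p = 0.0412). Smg8 overlaps Gm9378 on the other strand.

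Smg6, the endonuclease of the pathway, also fell. It had 6.88, 8.53, 8.5, 4.63 and 7.88 FPKM in knockout libraries, against 10.95, 9.24, 10.64, 12.03 and 12.01 FPKM in control libraries. The groups did not overlap, and CKO12 was the lowest of the 10. Means were 7.28 ± 1.63 FPKM in knockout and 10.97 ± 1.15 FPKM in control libraries (SD, n = 5 each), with a limma change of -0.55 ± 0.153 (SE; adjusted p = 0.0115) and an exact two-sided permutation p of 0.00794. After median-of-ratios scaling the change was -0.21 (limma adjusted p = 0.247), and the authors' deposited table gave -0.23 with an adjusted p of 0.229, no call. Smg6 (chromosome 11, 74925823 to 75164448) overlaps 6 genes on the other strand, among them Srr.

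Smg5, the adaptor, rose. It had 23.64, 28.19, 32.57, 21.93 and 26.31 FPKM in knockout libraries, against 27.33, 16.85, 13.50, 14.49 and 20.04 FPKM in control libraries. All 5 knockout libraries exceeded 4 of the control libraries, and WT2 lay within the knockout range. Means were 26.5 ± 4.15 FPKM in knockout and 18.4 ± 5.57 FPKM in control libraries (SD, n = 5 each), and the limma change was 0.53 ± 0.178 (SE; adjusted p = 0.0284; exact two-sided permutation p = 0.0397). After median-of-ratios scaling it was 0.90 (limma adjusted p = 0.00105), and the authors' deposited table gave 0.90 with an adjusted p of 1.94e-07. Against all genes the change of Smg5 lay at the 87.9th percentile as deposited and at the 89.0th after scaling. The call as deposited was lost when any 1 of WT3, WT4, WT5, CKO8, CKO9 or CKO13 was left out, with changes of 0.44 to 0.53 and limma adjusted p of 0.0509 to 0.0699.

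**Figure D2:**
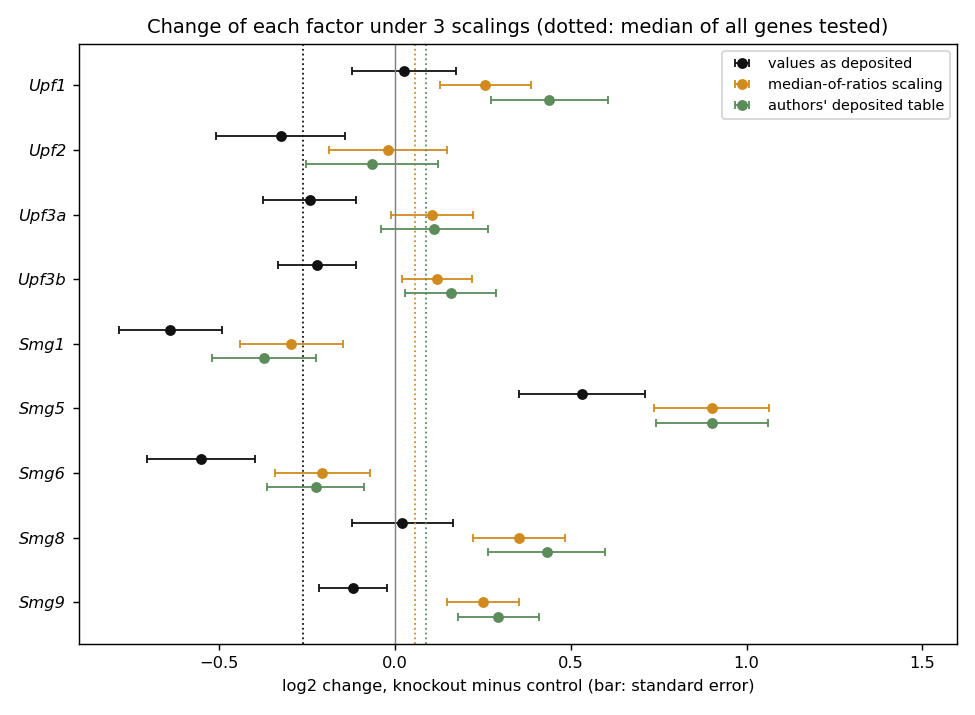
log2 change of each NMD factor, knockout minus control, with its standard error, from the deposited values (black), after median-of-ratios scaling (orange) and in the authors' deposited table (green); dotted lines mark the median change of all genes tested, -0.26, 0.06 and 0.09. Smg5 lies to the right of 0 and Smg1 and Smg6 to the left on all 3 scales.

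The authors' deposited table called higher 4 of the 9 factors (Upf1, Smg5, Smg8 and Smg9) and called Smg1 lower, where 17.1% of the 23405 genes with an adjusted p were higher and 11.5% lower. Those 23405 genes are more than the 14007 that passed the filter here, so they include genes of lower level than the factors. In the authors' deposited table the median log2 fold change over the genes tested here was 0.09, near that of the median-of-ratios scaling. Smg5 and Smg1 were the factors called in the same direction by that table and by limma on the deposited values.

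The order of the factors by level was compared within each group. In knockout libraries Smg5 (26.5 FPKM) and Smg9 (20.4 FPKM) stood above Upf3a (8.03), Smg6 (7.28), Upf3b (6.83), Smg8 (6.48) and Smg1 (6.35), with Upf2 (3.57) and Upf1 (1.57) below them. In control libraries the order was Smg9 (22.2 FPKM), Smg5 (18.4), Smg6 (10.97), Smg1 (10.6), Upf3a (9.83), Upf3b (8.13), Smg8 (6.36), Upf2 (4.70) and Upf1 (1.53). Smg5 and Smg9 overlapped in both groups, as did each neighbouring pair from Upf3a to Smg1 in knockout libraries and from Smg6 to Upf2 in control libraries. Upf1 lay below every other factor in all 10 libraries, at the 9.95th percentile of the mean levels of all genes tested. Together the 9 factors summed to 82.84, 94.42, 99.14, 73.61 and 85.11 FPKM in knockout libraries, against 109.30, 89.47, 82.05, 91.83 and 90.91 FPKM in control libraries. These sums overlapped, with CKO12 the lowest and WT2 the highest.

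Ratios of factor pairs within a library do not depend on how libraries were scaled, and 5 pairs are given, with the exact two-sided permutation test adjusted over the 6 pairs computed. The adaptor and the endonuclease, which start separate branches of decay, were compared first. Smg5 to Smg6 was 3.44, 3.30, 3.83, 4.74 and 3.34 in knockout libraries, against 2.496, 1.82, 1.27, 1.20 and 1.67 in control libraries. All knockout libraries lay above all control libraries, and the geometric means of 3.69 in knockout and 1.63 in control libraries differed by 1.18 on the log2 scale (exact permutation p = 0.00794, adjusted p = 0.0238). Within the kinase complex, Smg8 to Smg1 was 0.977, 1.11, 1.09, 0.854 and 1.05 in knockout libraries, against 0.540, 0.776, 0.696, 0.517 and 0.545 in control libraries. Again the groups did not overlap, and the geometric means of 1.01 in knockout and 0.606 in control libraries differed by 0.74 (exact permutation p = 0.00794, adjusted p = 0.0238). Smg6 and Smg1, a member of each of these pairs, were also without overlap as single genes, as were 31.5% of all genes tested. The share of all gene pairs whose ratios separate the groups is not given here, so these ratios are not shown to be particular to the factors.

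The other 3 ratios overlapped between groups. Upf1 to Upf2 was 0.452 in knockout and 0.329 in control libraries, a difference of 0.46 (exact permutation p = 0.103, adjusted p = 0.155). Smg8 to Smg9 was 0.315 in knockout and 0.284 in control libraries, a difference of 0.15 (exact permutation p = 0.365, adjusted p = 0.438). The paralogs Upf3a and Upf3b kept ratios of 1.07 to 1.32 in knockout and 0.883 to 1.57 in control libraries, with a difference of -0.02 (exact permutation p = 0.952, adjusted p = 0.952).

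**Figure D3:**
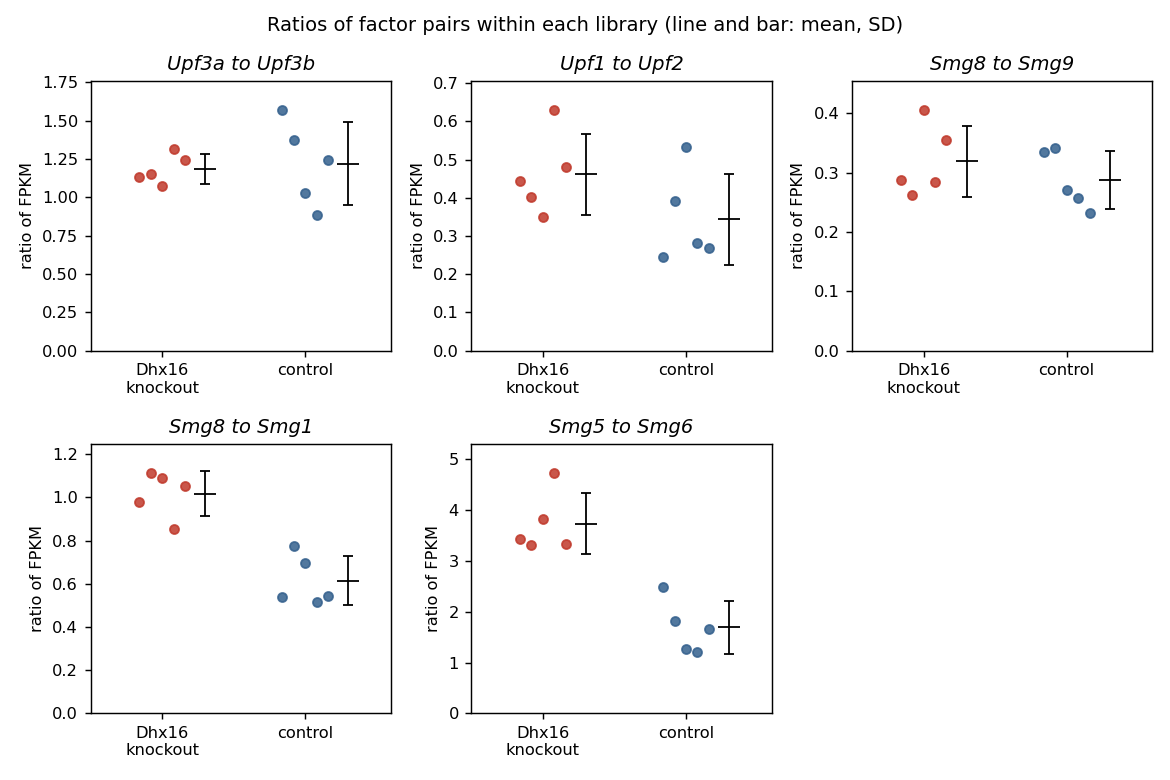
Ratio of FPKM of 5 factor pairs within each library, in Dhx16 knockout (left, red) and control (right, blue) libraries, with the mean and SD beside each group. The groups separate for Smg5 to Smg6 and for Smg8 to Smg1 and overlap for the other 3 pairs.

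Variation between libraries of 1 group was partly shared by the factors. After each group's mean was removed, 30 of the 36 factor pairs had a Pearson r above 0 over the 10 libraries, with a median of 0.25. Upf2 with Smg6 had the highest r, 0.79, followed by Upf2 with Smg9 (0.73) and Upf1 with Upf3b (0.71), and Upf1 with Smg1 had the lowest, -0.37. Smg5 and Smg1, called in different directions, had an r of 0.61 once the group difference was removed and of -0.34 with it. These correlations are descriptions, and all pairs share each library's depth and scaling. The same value for pairs of other genes is not given here, so the sharing is not shown to be particular to the factors. CKO12 was the lowest knockout library for 7 of the 9 factors, and WT2 was the highest control library for 4. Of the 10 libraries, CKO12 also had the highest column sum, 966648 FPKM, and the fewest genes at 1 FPKM or more, 12687.

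**Figure D4:**
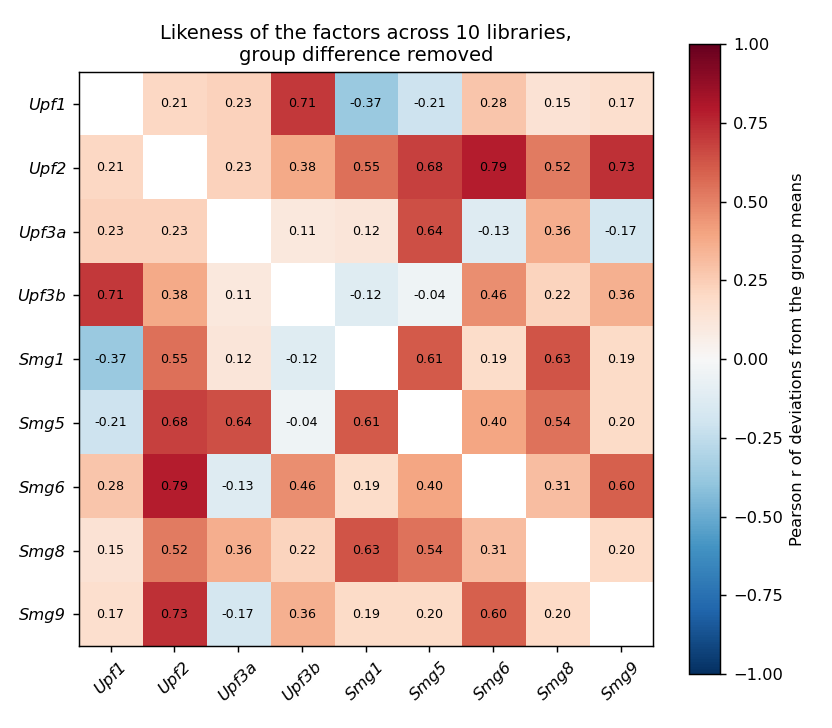
Pearson r between pairs of NMD factors over the 10 libraries (5 Dhx16 knockout, 5 control) after each group's mean was removed, from -1 (blue) to 1 (red). Most pairs are above 0, Upf2 with Smg6 is the highest at 0.79, and Upf1 with Smg1 is the lowest at -0.37.

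Smg1 had the largest moderated test statistic of the 9, and the 5 genes with the profile most like it over all 10 libraries were Myo1g (r = 0.977), Lrp12 (0.976), Zfp108 (0.975), Tbc1d22a (0.973) and Osbpl3 (0.972). All 5 were lower in the knockout libraries, so these correlations contain the group difference.

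Transcript length differed among the factors and moved with the change over all genes. Smg1, whose longest annotated transcript has 15557 bases and 63 exons, Smg6 and Upf2 fell in the longest quartile of protein-coding genes, where the median change was -0.37. Smg5, Upf1 and Upf3a were in the next quartile (median -0.29), Smg8, Smg9 and Upf3b in the one after (-0.24), and no factor was in the shortest quartile (-0.14). Spearman's rho between length and change was -0.147 across 11515 genes, a description over genes that share the libraries, and its part in the changes of the factors was not tested.

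The genes around the 9 factors were counted by 9 lists, with 85 of 86 genes passing the filter. Under limma on the deposited values 22 were higher and 18 lower, and after median-of-ratios scaling 45 were higher and 8 lower. As deposited that is 25.9% higher and 21.2% lower, beside 12.6% and 33.8% of all genes, and after scaling 52.9% higher and 9.41% lower, beside 26.8% and 12.8% of all genes. All 22 higher calls and 8 of the 18 lower calls were shared by both scalings. Lists are given with their counts and median change, to be set beside these shares and the median of -0.26 for all genes as deposited. The shares over all genes were not matched to the lists by level. With a filter of 10 FPKM in 5 libraries, 1460 of all 6913 genes tested were higher and 2182 lower. Of the related genes 23 were then higher and 12 lower, and the number tested under that filter is not given here.

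Of 11 genes of the exon junction complex, which splicing deposits on mRNA, 5 rose and 1 fell, with a median of 0.35 (9 and 0 after median-of-ratios scaling). Eif4a3, the helicase that anchors the complex on RNA, averaged 308 ± 14.5 FPKM in knockout and 181 ± 21.9 FPKM in control libraries (SD, n = 5 each; limma change 0.77, adjusted p = 0.000181). Rnps1, a splicing regulator bound to the complex, averaged 168 ± 9.94 FPKM in knockout and 106 ± 15.3 FPKM in control libraries (limma change 0.67, adjusted p = 0.000566). The core pair Magoh and Rbm8a each rose by 0.43 (limma adjusted p = 0.0338 and 0.0290), whereas the remaining core gene, Casc3, changed by -0.15 and did not pass (adjusted p = 0.523). Acin1 fell by 0.52 (limma adjusted p = 0.00602). Rbm8a was not called without CKO7 or CKO8, nor Magoh without any 1 of WT2, WT5, WT6, CKO8, CKO9, CKO12 or CKO13, and without CKO8 the list had 3 higher genes.

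Termination, poly(A) and cap-binding genes had a median of 0.55, with 4 of 8 higher and 1 lower (6 and 0 after median-of-ratios scaling). The release factor genes Etf1 and Gspt1 rose. Etf1 averaged 28.9 ± 4.04 FPKM in knockout and 16.5 ± 2.15 FPKM in control libraries (limma change 0.78, adjusted p = 0.000476). Gspt1 averaged 37.9 ± 13.3 FPKM in knockout and 22.1 ± 1.40 FPKM in control libraries, a change of 0.67 (limma adjusted p = 0.0282) that was not called without any 1 of WT2, WT3, WT5, CKO7, CKO8 or CKO13. Ncbp1, a subunit of the nuclear cap-binding complex, rose by 0.87 (limma adjusted p = 0.000253). Gspt2 was the 1 lower gene, and none was lower without any 1 of WT3, WT4, WT5, WT6, CKO7, CKO8 or CKO13.

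Genes of the TTT and R2TP complexes, which fold SMG1 and related kinases, included 3 of 7 higher and 1 lower (median 0.06), and 6 higher and 0 lower after median-of-ratios scaling. Ruvbl2, an ATPase of R2TP, averaged 118 ± 16.6 FPKM in knockout and 59.4 ± 11.5 FPKM in control libraries (limma change 0.99, adjusted p = 0.000291). Tti2, a TTT subunit, averaged 14.6 ± 2.17 FPKM in knockout and 7.84 ± 0.668 FPKM in control libraries (limma change 0.81, adjusted p = 0.000265). Pih1d1, the R2TP adaptor, fell by 0.46 (limma adjusted p = 0.00252). Of the 5 other genes of the SMG1 kinase family limma called 0 higher and 2 lower, near the 33.8% lower among all genes. Their median was -0.22, and Atr fell by 0.55 (limma adjusted p = 0.0242) and Trrap by 0.36 (limma adjusted p = 0.0348). Without WT2 none of the 5 was lower, and without any 1 of WT5, CKO7, CKO8 or CKO12 just 1 was. After median-of-ratios scaling 1 of the 5, Mtor, was higher and 0 were lower by limma. With upper-quartile scaling, or without CKO12, 1 of the 5 was also higher, and at an unadjusted p under 0.05 1 was higher as deposited.

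Among 6 other NMD factors Sec13 rose and Dhx34 fell, with a median of -0.14 (2 higher and 0 lower after median-of-ratios scaling). Sec13, a nucleoporin and coat protein that takes part in NMD at the endoplasmic reticulum in human cells, averaged 122 ± 12.1 FPKM in knockout and 83.9 ± 15.4 FPKM in control libraries (limma change 0.55, adjusted p = 0.00519). Dhx34, an RNA helicase that binds UPF1, averaged 7.96 ± 1.17 FPKM in knockout and 10.5 ± 1.49 FPKM in control libraries (limma change -0.36, adjusted p = 0.0382). Its call was lost without any 1 of WT2, WT3, WT5, WT6, CKO7, CKO8 or CKO13.

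Downstream of SMG5 and SMG6 the mRNA is degraded from both ends. Of 10 tested genes for decapping and for decay from the capped end, limma called 0 higher and 4 lower (median -0.19, above the -0.26 of all genes), near the 33.8% lower among all genes, and 0 were higher at an unadjusted p under 0.05. After median-of-ratios scaling 1 was higher and 3 lower. Xrn1, the cytoplasmic exonuclease that degrades the downstream fragment after SMG6 cuts, averaged 4.99 ± 0.854 FPKM in knockout and 8.28 ± 0.861 FPKM in control libraries (limma change -0.64, adjusted p = 0.00215). Pnrc1, a regulator of decapping, averaged 115 ± 58.1 FPKM in knockout and 302 ± 21.6 FPKM in control libraries (limma change -1.52, adjusted p = 0.00144). Dcp1b, a decapping cofactor, fell by 0.71 (limma adjusted p = 0.000836), and Dcp2, the decapping enzyme, changed by 0.15 and did not pass (adjusted p = 0.608). Without WT4 the list had 1 higher gene, Dcp2. Its value in WT4 was 29.42 FPKM, against 9.83 to 14.59 FPKM in the other control libraries. The knockout libraries had 15.44 to 17.48 FPKM of Dcp2.

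Deadenylation genes included 1 of 12 higher and 3 lower (median -0.09), and 3 higher and 1 lower after median-of-ratios scaling. Cnot6l, a deadenylase of the CCR4-NOT complex, fell by 0.78 (limma adjusted p = 0.000721) and Cnot9, a subunit of the same complex, rose by 0.56 (adjusted p = 0.00308). The exosome and Ski complex, which act on RNA from the tail end, had 5 of 14 higher and 0 lower by limma (median 0.29), with 0 lower at an unadjusted p under 0.05. Dis3, an exosome nuclease, averaged 19.3 ± 4.51 FPKM in knockout and 10.4 ± 1.10 FPKM in control libraries (limma change 0.80, adjusted p = 0.00157), and the core subunit Exosc8 rose by 0.58 (adjusted p = 0.0261). The count of higher exosome genes was 8 without WT2 or WT4 and 3 without WT5, WT6 or CKO8; Exosc8 was not called without these 3 or CKO13. After median-of-ratios scaling 13 of the 14 were higher.

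Transcripts known from other systems as NMD targets did not move one way. Of 12, 3 rose and 5 fell, with a median of -0.38, where 12.6% of all genes were higher and 33.8% lower. Of the 6 hosts of small nucleolar RNAs in the list, Snhg1, Snhg5 and Snhg15 rose, while Gas5 (0.28, limma adjusted p = 0.282), Snhg12 (-0.31, adjusted p = 0.135) and Zfas1 (-0.28, adjusted p = 0.197) did not pass. Of the 6 genes of stress responses, Atf3, Ddit3, Ern1, Gadd45a and Gadd45b fell, and Atf4 did not pass (-0.45, limma adjusted p = 0.0679). Ddit3 averaged 29.7 ± 7.13 FPKM in knockout and 78.8 ± 9.65 FPKM in control libraries (limma change -1.40, adjusted p = 6.02e-05), and Atf3 changed by -1.87 (adjusted p = 0.00715). The Snhg5 call was lost without any 1 of WT3, WT5, WT6, CKO7, CKO8, CKO9 or CKO13. After median-of-ratios scaling 4 of the 12 were higher and 4 lower. The Atf3, Ddit3, Ern1 and Gadd45b calls held there, as did those of Snhg1, Snhg5 and Snhg15. Levels of these genes reflect transcription as well as decay, and decay itself was not measured.

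**Figure D5:**
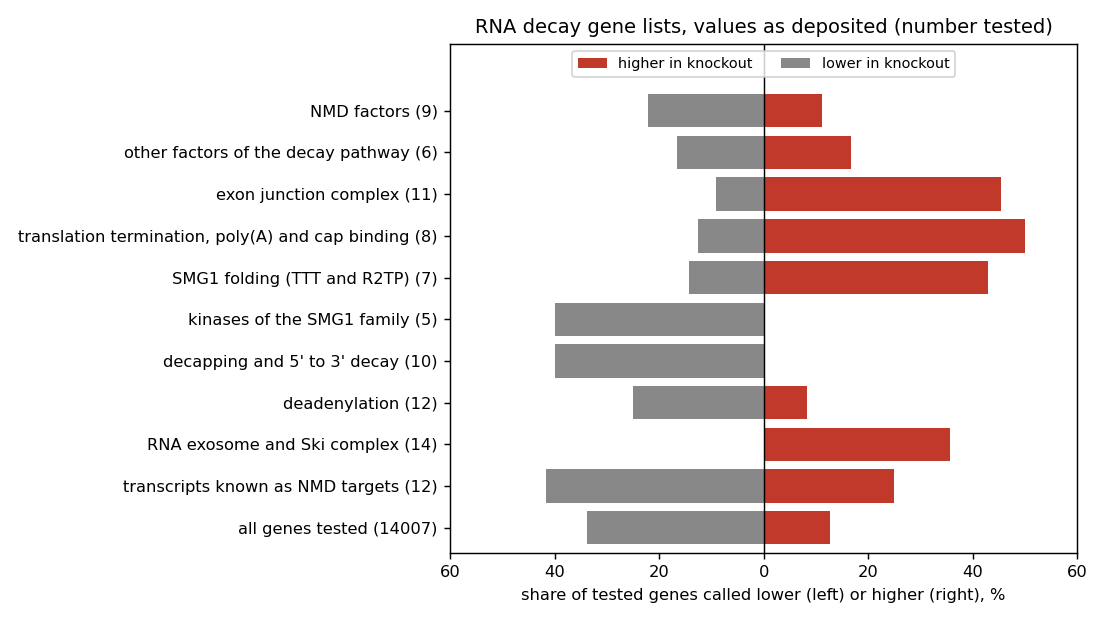
Share of tested genes called higher (right, red) or lower (left, grey) in Dhx16 knockout libraries for the NMD factors, the 9 lists of related genes and all genes tested, with the number tested in brackets; values as deposited. The exosome list has no lower gene, the decapping and kinase lists have no higher gene, and all genes stand at 12.6% higher and 33.8% lower.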

How the data were processed

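mRNA of sorted HSCs was sequenced on an Illumina HiSeq in 5 Dhx16 knockout and 5 control samples. A single deposited table of 52097 genes holds 10 library columns, taken as FPKM: the header does not name the unit, the values have 2 decimals and column sums that differ between libraries, and Cufflinks is listed. Per the submitters' processing notes, Bowtie 0.12.9, Cufflinks 2.1.1, HTSeq and mm10 were used, with no role stated. The authors' deposited columns also give, per the file headers, a mean normalised signal, a log2 fold change with its error, a test score (stat), and p-values with adjusted p-values, named as DESeq2 names them. Counts per library were not analysed here, so depth is unknown and intervals for counting error were not made. Column sums were 877099 to 966648 FPKM in knockout and 770789 to 957520 FPKM in control libraries.

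Column names give the group but not the sample, so columns are replicates without a number. Genes with a mean of 1 FPKM or more over the 10 libraries (14007) were tested with limma 3.58.1 (trend and robust) in R 4.3.3 on log2(FPKM + 1), knockout minus control, with Benjamini-Hochberg adjustment over all genes tested. Changes on this scale understate those of low genes. The filter is at 1 FPKM because a filter of 10 FPKM in 5 libraries keeps 2 of the 9 factors. Single values and ratios used exact two-sided permutation tests (scipy 1.17.1). Promoters are from RefSeq (GRCm38.p6, all 9 factors matched) and gene positions and overlaps from an annotation of the mm10 build, in which all 52097 gene IDs were found. Named genes were the 9 factors, Dhx16, the 2 called genes of each list with the largest change, genes with a known role, and the 5 genes most like the factor with the largest test statistic; Acin1, Gspt2, Pih1d1, Mtor, Ptprc, Atf4, Snhg1, Snhg5, Snhg12, Snhg15, Zfas1, Ern1, Gadd45a and Gadd45b were named after their values were seen. The factors and lists were chosen with earlier results of these data known. Results for 1 item are not reported here. Alternatives were other scalings, pseudocounts, filters and fits, and leaving out each library.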

Additional observations from a re-analysis of the deposited data

Results flagged for a closer look

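Of 80 sets of 5 libraries checked (the 9 factors, Dhx16, the genes named from the lists by rule and the 5 ratios, per group), 3 had a library far from the other 4, and chance alone gives about 1 in 20. Cnot6l was at 19.22 FPKM in WT3, against 27.05 to 28.53 FPKM in the other control libraries. Dcp2 was at 29.42 FPKM in WT4, against 9.83 to 14.59 FPKM in the other control libraries. Gas5 was at 1503.37 FPKM in WT4, against 707.57 to 822.98 FPKM in the other control libraries. None of the 9 factors or 5 ratios had such a library in either group.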

How the results depend on the processing

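Over 20 alternatives the 9 factors gave 173 values, of which 160 had the same call as reported, 12 lost it, 1 gained it and 0 called values changed sign. Smg5 was positive in all 21 fits and called in 11. Smg1 and Smg6 were negative in all 20 fits that tested them and called in 19. Uncalled changes of Upf1, Upf3a, Upf3b, Smg8 and Smg9 took either sign. The count of factors called higher was 0 with equal totals, with no filter, and in both settings chosen after seeing the data: without CKO13 and WT6, the libraries of each group highest in bone matrix transcripts, and without CKO8 and WT3, those highest in granulocyte transcripts. It was 0 to 1 when each library was left out in turn. The count called lower was 0 after median-of-ratios scaling and 0 with a filter of 10 FPKM, where only Smg5 and Smg9 were tested. Upf3b was lower with equal totals (-0.35, limma adjusted p = 0.0376). Related genes called were 45 higher and 8 lower after median-of-ratios scaling, against 22 and 18 as deposited. All genes called were 3751 higher and 1797 lower after that scaling, against 1771 and 4731 as deposited, and 2182 were lower with the filter of 10 FPKM, which tested 6913 genes. The share of calls that were higher was 27.2% as deposited, 67.6% by median of ratios, 41.3% by upper quartile, 18.2% with equal totals and 40.1% with the filter of 10 FPKM. The median change of all genes was -0.14 by upper quartile and -0.38 with equal totals. Smg5 to Smg6 (1.07 to 1.33) and Smg8 to Smg1 (0.68 to 0.83) passed without any single library. Apart from fewer genes or samples tested, the cause was not tested. No paired analysis was possible because the columns carry library numbers that are not the replicate numbers of the titles. Depth is unknown, so what it limits could not be set.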

Other observations

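Genes with annotated NMD transcripts were compared with other genes as a description. At least 1 transcript of the NMD class is annotated for 30.0% of the tested protein-coding genes, and Smg1, Smg5 and Smg6 have 1 each while the other 6 factors have 0. Of the 3452 genes with such a transcript, 13.1% were higher and 37.0% lower in knockout libraries, with a median change of -0.24. Of the 8063 genes without one, 13.5% were higher and 37.2% lower, with a median change of -0.29. The table holds values per gene, so the share of such transcripts was not analysed here.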
